A study of Mus musculus with 16 samples.

Results

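The genes described here are 10 components of transforming growth factor beta (TGF-beta) and bone morphogenetic protein (BMP) signalling, measured in cerebral cortex of mice given bacterial lipopolysaccharide (LPS) at 1 of 2 times of day (TOD). They are the receptors Eng (endoglin), Acvrl1 (ALK1), Tgfbr1, Tgfbr2 and Bmpr2, the inhibitory SMADs Smad6 and Smad7, the BMP-responsive genes Id1 and Id3, and the ligand Tgfb1. Members were chosen by name, with earlier results of these data known, and matched on the gene symbol of the table. All 10 were found among 55487 gene identifiers, and all 10 were among the 18859 genes tested, with more than 3 reads in every library.

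TGF-beta and BMP ligands bind pairs of type I and type II serine/threonine kinase receptors, which phosphorylate SMAD transcription factors. Endothelial cells have a branch of their own, in which BMP9 and BMP10 signal through the type I receptor ALK1, with endoglin as a co-receptor and SMAD1 and SMAD5 downstream. The Id genes are typical targets of that branch, whereas SMAD6 and SMAD7 are induced as feedback inhibitors. Loss of ENG or ACVRL1 causes hereditary haemorrhagic telangiectasia in people, a disease of malformed vessels that can affect the brain.

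The study asked whether inflammation of the brain and its vessels depends on TOD. Male wild-type C57Bl6 mice, 2 months old, received 2 mg/kg LPS or phosphate-buffered saline (PBS) i.p. on consecutive days, at zeitgeber time (ZT) 1 or ZT13, which are 1 h after lights on and 1 h after lights off. Cortex was collected on the third day, and ribosomal RNA-depleted total RNA libraries were sequenced from 3 ZT1 PBS, 5 ZT1 LPS, 3 ZT13 PBS and 5 ZT13 LPS mice. Each TOD had its own PBS controls, and every mouse was wild type.

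Libraries held 20251840 to 29112758 reads on genes (median 22459623), so that 3 reads corresponded to 0.103 to 0.148 CPM (reads per 1000000 reads on genes). For 12 of 16 libraries the treatment given in the labels differs from that in the title, and groups follow the titles. Gfap, the filament gene of reactive astrocytes, went by the titles, with 111 to 123 CPM in the PBS groups and 572 to 1134 CPM in the LPS groups. Among PBS mice, the clock genes Dbp (37.3 to 55.5 CPM at ZT1, 91.5 to 111 CPM at ZT13) and Arntl (38.6 to 39.4 CPM at ZT1, 24.0 to 27.3 CPM at ZT13) also separated by titled TOD. Neuron markers (8 genes) summed to 4437 to 5258 CPM in every library, so the label of brain tissue held. Choroid plexus markers (5 genes) ranged from 14.0 to 972 summed CPM and varied as widely inside groups as between them. ZT1 LPS replicate 2 had the lowest summed endothelial (371 CPM), microglial (320 CPM) and neutrophil (17.4 CPM) markers of the ZT1 LPS group.

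In PBS mice at ZT1, levels per kilobase of annotated exon put Bmpr2 first, at 14.2 ± 0.554 CPM per kb (SD, n = 3). Id3 (9.97 ± 0.467 CPM per kb), Id1 (8.95 ± 0.411 CPM per kb), Smad7 (6.99 ± 0.702 CPM per kb) and Eng (4.83 ± 0.108 CPM per kb) followed. Tgfbr1 (2.34 ± 0.187 CPM per kb), Tgfbr2 (2.20 ± 0.164 CPM per kb) and Acvrl1 (2.00 ± 0.301 CPM per kb) lay within the spread of their neighbours. Tgfb1 (1.16 ± 0.0903 CPM per kb) and Smad6 (0.892 ± 0.0709 CPM per kb) were lowest. In ZT13 LPS mice the order had changed. Id1 (17.1 ± 1.94 CPM per kb, n = 5) and Id3 (16.2 ± 0.978 CPM per kb) led but overlapped in spread, ahead of Bmpr2 (14.0 ± 0.672 CPM per kb) and Eng (12 ± 1.40 CPM per kb). Eng now stood above Smad7 (6.28 ± 0.759 CPM per kb), and Acvrl1 (5.96 ± 0.711 CPM per kb) above both Tgfbr2 (3.84 ± 0.194 CPM per kb) and Tgfbr1 (2.15 ± 0.297 CPM per kb). Lengths were those of all annotated exons of a gene, not of the transcripts used in cortex.

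The upstream promoter windows of 3 receptors are shown because 2 of these genes, Eng and Tgfbr2, were called higher after LPS at both TODs while Tgfbr1, the kinase partner of Tgfbr2, was not called at either. Each is the 250 bases before the start site in RefSeq (GRCm38.p6), and 7 of the 10 genes had an entry. Capitals mark the only match to a searched motif, a GGCGCC at position -233 of the first Tgfbr1 start site.
Eng, chr2:32646345-32646594, plus strand: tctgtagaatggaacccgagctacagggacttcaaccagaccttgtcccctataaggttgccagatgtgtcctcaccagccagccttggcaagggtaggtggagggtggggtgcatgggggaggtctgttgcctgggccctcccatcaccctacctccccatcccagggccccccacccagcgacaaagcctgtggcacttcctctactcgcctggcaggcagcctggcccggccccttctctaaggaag
Tgfbr2, chr9:116175364-116175613, minus strand: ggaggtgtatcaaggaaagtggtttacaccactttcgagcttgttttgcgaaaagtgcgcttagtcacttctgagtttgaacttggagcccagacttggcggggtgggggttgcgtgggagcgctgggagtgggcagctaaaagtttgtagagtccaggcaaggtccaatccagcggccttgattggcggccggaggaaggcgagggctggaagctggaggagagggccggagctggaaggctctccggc
Tgfbr1, chr4:47352972-47353221, plus strand: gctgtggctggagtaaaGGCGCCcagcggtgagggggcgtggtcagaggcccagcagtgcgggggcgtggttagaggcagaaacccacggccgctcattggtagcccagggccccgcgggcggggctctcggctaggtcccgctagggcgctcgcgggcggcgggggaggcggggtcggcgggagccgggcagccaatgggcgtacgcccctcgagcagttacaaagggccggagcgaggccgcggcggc

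The letters searched, on both strands, were GGCGCC and CAGACA (bound by SMADs), CACGTG (the E-box of clock factors) and CCGGAAG (an ETS motif of endothelial factors). Of 32851 promoter windows of the same length, 9.59% held GGCGCC, 17.1% CAGACA, 6.02% CACGTG and 6.91% CCGGAAG. Among the other members with an entry, Bmpr2 held GGCGCC at -105, a second Tgfbr1 start site had CAGACA at -203, and Smad6, Id3 and Tgfb1 held none of the 4. Base composition differed between the 3 windows shown: G and C made up 62.4% for Eng, 58.4% for Tgfbr2 and 74.8% for Tgfbr1, against a median of 52.4% over all promoters. CpG dinucleotides numbered 4 for Eng, 12 for Tgfbr2 and 29 for Tgfbr1, against a median of 6. For the other members with an entry, composition is given beside their LPS calls. Tgfb1 (75.2%, 21 CpG) and Id3 (62.8%, 18 CpG) were called higher at both TODs. Bmpr2 (64%, 22 CpG) and Smad6 (66.8%, 27 CpG) were not called. The second Tgfbr1 start site had 52.8% and 3 CpG. A link of composition with response was not tested. A match describes letters in a window and is no evidence of binding.

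LPS against PBS was compared within each TOD, to ask how these genes respond to the inflammatory stimulus. At both TODs the same 6 members, Eng, Acvrl1, Tgfbr2, Id1, Id3 and Tgfb1, were higher in LPS mice by limma at a Benjamini-Hochberg adjusted p under 0.05. Tgfbr1, Bmpr2, Smad6 and Smad7 were not called at either TOD. Of all genes tested, 16.2% were called at ZT1 (11.1% higher, 5.15% lower) and 28.6% at ZT13 (19.2% higher, 9.4% lower). The median log2 fold change of the members was 0.61 at ZT1 and 0.64 at ZT13, against 0.04 and 0.05 over all genes tested. In whole cortex, more cells cannot be told apart from more RNA per cell, whether in endothelium or in other cell types.

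**Figure D1:**
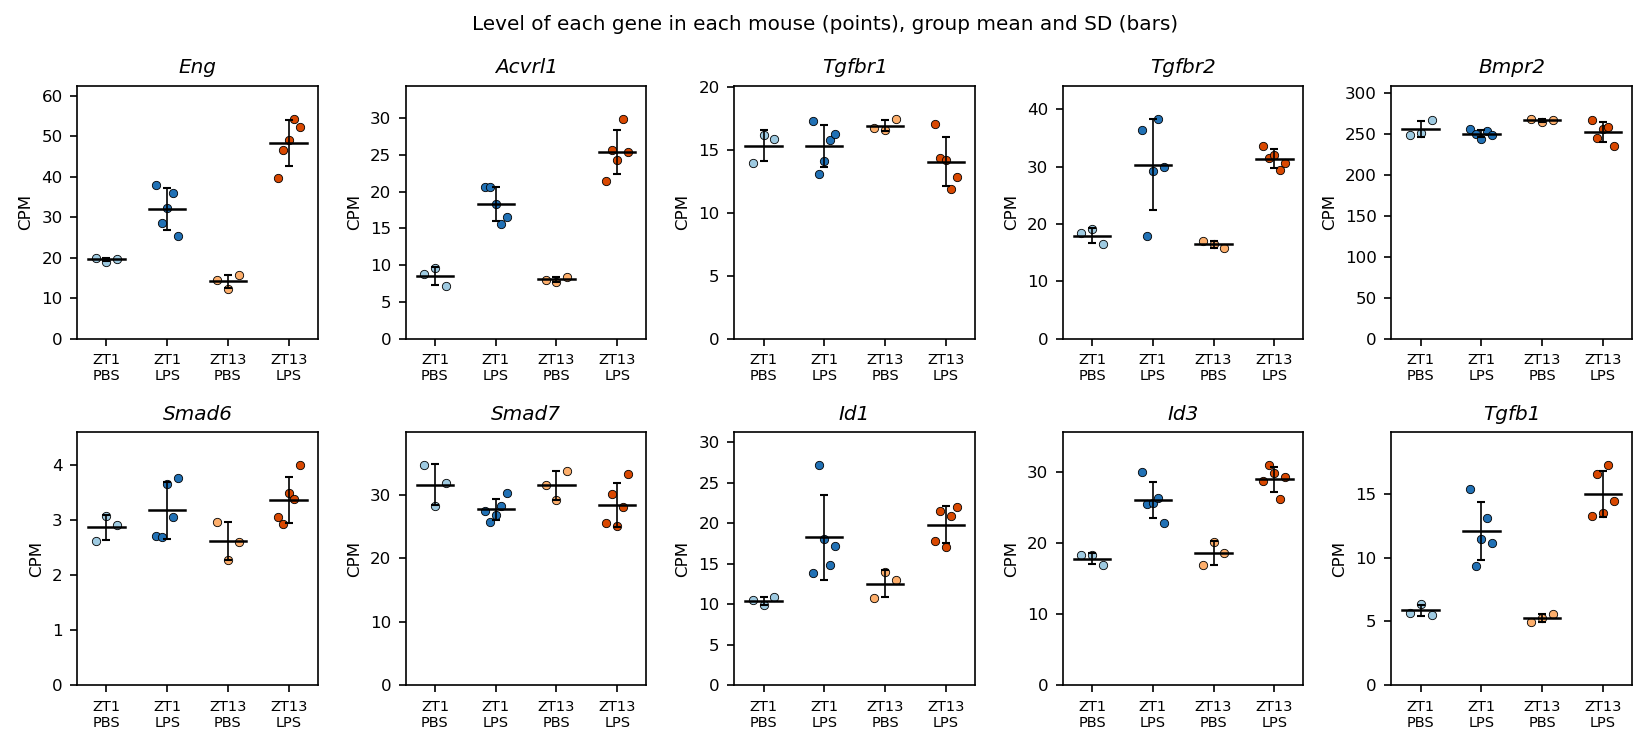
CPM of the 10 genes in each of the 16 mice (vertical axes from 0, a scale per gene), with ZT1 in blue and ZT13 in orange, and bars at the group mean ± SD. Eng and Acvrl1 show no overlap between LPS and PBS mice of a TOD or between ZT1 LPS and ZT13 LPS mice, whereas Tgfbr1, Bmpr2, Smad6 and Smad7 overlap between treatments.

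Eng (ENSMUSG00000026814; GRCm38 chr2:32646595-32682669, plus strand) encodes endoglin, a membrane co-receptor concentrated on endothelial cells. It stood at 19.9, 19.1 and 19.7 CPM in ZT1 PBS mice and at 38.0, 28.6, 32.2, 36.0 and 25.4 CPM in ZT1 LPS mice. It stood at 14.5, 12.3 and 15.6 CPM in ZT13 PBS mice and at 39.8, 46.7, 49.0, 54.3 and 52.4 CPM in ZT13 LPS mice. Every LPS mouse was above every PBS mouse, the ZT13 PBS mice were the lowest of all, and the ZT13 LPS mice the highest. The ratio of mean CPM was 1.64 at ZT1 and 3.43 at ZT13. The log2 fold change was 0.68 (SE 0.11, 95% interval 0.43 to 0.93, adjusted p = 0.0021) at ZT1 and 1.74 (SE 0.095, interval 1.53 to 1.94, adjusted p = 1.3e-08) at ZT13 by limma. Eng shares 61 exonic bases with Fpgs on the opposite strand, which was at 5.85 to 8.37 CPM, and whether counting used strand is not given in the sources used here.

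Acvrl1 (ENSMUSG00000000530; chr15:101128522-101145336, plus strand) encodes ALK1, the type I receptor that endoglin assists. Its level was 8.83, 9.63 and 7.12 CPM in ZT1 PBS mice and 20.7, 20.7, 18.3, 15.6 and 16.6 CPM in ZT1 LPS mice. It was 8.01, 7.72 and 8.42 CPM in ZT13 PBS mice and 21.5, 25.7, 24.4, 29.9 and 25.5 CPM in ZT13 LPS mice. The range of the ZT13 PBS mice lay inside that of the ZT1 PBS mice, and the 5 ZT13 LPS mice all lay above the 5 ZT1 LPS mice. Acvrl1 had the largest log2 fold change of the members at ZT1, 1.07 (SE 0.12, adjusted p = 1.3e-04 by limma), and reached 1.59 (SE 0.089, adjusted p = 1.5e-08) at ZT13. It shares 127 exonic bases with the antisense gene Gm16031, which did not exceed 0.221 CPM.

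Tgfbr2 (chr9:116084293-116175360, minus strand), the type II receptor that binds TGF-beta ligands directly, responded less evenly. It was at 18.3, 19.1 and 16.5 CPM in ZT1 PBS mice and at 36.4, 17.9, 29.3, 38.3 and 29.9 CPM in ZT1 LPS mice. It was at 17.0, 16.5 and 15.8 CPM in ZT13 PBS mice and at 33.6, 31.5, 32.0, 29.4 and 30.6 CPM in ZT13 LPS mice. ZT1 LPS replicate 2 lay inside the range of the PBS mice and the other 4 lay above it, whereas all 5 ZT13 LPS mice were far above their controls. The log2 fold change was 0.70 (SE 0.19, adjusted p = 0.032 by limma) at ZT1 and 0.91 (SE 0.058, adjusted p = 5.1e-08) at ZT13. The ZT1 call was lost in 6 of 8 fits that each left out 1 mouse (highest adjusted p = 0.13); without ZT1 LPS replicate 2 the value was 0.87 (adjusted p = 1.4e-04).

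Tgfbr1 (chr4:47353222-47414931, plus strand), the type I receptor of TGF-beta, and Bmpr2 (chr1:59763400-59879014, plus strand), a type II receptor for BMPs, were not called at either TOD. Tgfbr1 was at 13.9 to 16.1 CPM in ZT1 PBS, 13.1 to 17.3 CPM in ZT1 LPS, 16.6 to 17.4 CPM in ZT13 PBS and 11.9 to 17.0 CPM in ZT13 LPS mice. Its log2 fold change was -0.0057 at ZT1 (95% interval -0.22 to 0.21, adjusted p = 0.98) and -0.27 at ZT13 (interval -0.48 to -0.061, adjusted p = 0.052). Of the 5 ZT13 LPS mice, 4 lay under every ZT13 PBS mouse, and replicate 1 lay inside the PBS range; without that mouse the value was -0.34 and passed the test (adjusted p = 0.0072 by limma). Tgfbr1 was also called lower at ZT13 in 4 of 10 other settings (the replicate block included), with median-of-ratios scaling (-0.32, adjusted p = 0.018), quantile normalization (-0.40, adjusted p = 0.0080), sample quality weights (-0.28, adjusted p = 0.038) and a filter of 5 CPM (adjusted p = 0.045). Bmpr2 was called lower at ZT13 with median-of-ratios scaling (-0.14, adjusted p = 0.014). Bmpr2 itself had values of -0.030 (interval -0.11 to 0.049) at ZT1 and -0.080 (interval -0.17 to 0.0048) at ZT13, and its group means ran only from 250 to 266 CPM.

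The ligand Tgfb1 (chr7:25687002-25705077, plus strand) encodes TGF-beta 1, which microglia, macrophages and endothelial cells make in the brain. It was at 5.67, 6.37 and 5.52 CPM in ZT1 PBS mice and at 15.4, 9.36, 11.5, 13.1 and 11.1 CPM in ZT1 LPS mice. It was at 4.93, 5.23 and 5.55 CPM in ZT13 PBS mice and at 13.2, 16.5, 13.5, 17.2 and 14.5 CPM in ZT13 LPS mice. All LPS mice lay above all PBS mice. The log2 fold change was 0.97 (SE 0.14, adjusted p = 6.8e-04) at ZT1 and 1.43 (SE 0.098, adjusted p = 1.1e-07) at ZT13 by limma.

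Id1 (chr2:152736251-152737410, plus strand) and Id3 (chr4:136143497-136145755, plus strand) encode inhibitors of helix-loop-helix factors and are common readouts of BMP and ALK1 signalling. Id1 was at 10.5, 9.88 and 10.8 CPM in ZT1 PBS and at 13.9, 27.1, 18.1, 14.9 and 17.2 CPM in ZT1 LPS mice. It was at 10.7, 13.9 and 12.9 CPM in ZT13 PBS and at 17.8, 21.4, 17.0, 20.9 and 21.9 CPM in ZT13 LPS mice. The same ZT1 LPS replicate 2 that was lowest for Tgfbr2 was highest for Id1. The log2 fold change of Id1 was 0.74 (SE 0.17, adjusted p = 0.013) at ZT1, 0.59 without that mouse (adjusted p = 0.0017), and 0.64 (SE 0.10, adjusted p = 2.7e-04) at ZT13 by limma. The ZT1 call was lost when PBS replicate 1 (adjusted p = 0.052) or replicate 2 (adjusted p = 0.057) was left out.

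Id3 was tighter, at 16.9 to 18.4 CPM in ZT1 PBS, 22.9 to 30.0 CPM in ZT1 LPS, 16.9 to 20.2 CPM in ZT13 PBS and 26.3 to 31.0 CPM in ZT13 LPS mice. Its groups did not overlap between treatments at either TOD. The log2 fold change was 0.53 (SE 0.081, adjusted p = 0.0012) at ZT1 and 0.63 (SE 0.069, adjusted p = 1.1e-05) at ZT13 by limma.

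The inhibitory SMADs gave values of opposite sign and no call. Smad6 (chr9:63953076-64022059, minus strand), which blocks BMP-type SMADs, was at 2.61 to 3.06, 2.69 to 3.76, 2.27 to 2.96 and 2.92 to 3.99 CPM in ZT1 PBS, ZT1 LPS, ZT13 PBS and ZT13 LPS mice. Its log2 fold change was 0.12 (95% interval -0.19 to 0.42, adjusted p = 0.62) at ZT1, which changed sign under quantile normalization, and 0.31 (interval 0.029 to 0.60, adjusted p = 0.095) at ZT13, which was 0.084 under quantile normalization. Smad7 (chr18:75367529-75395935, plus strand), which blocks both branches, was at 28.3 to 34.6, 25.7 to 30.3, 29.2 to 33.7 and 25.0 to 33.3 CPM in the same order of groups. Its log2 fold change was -0.19 (interval -0.35 to -0.023, adjusted p = 0.12) at ZT1 and -0.15 (interval -0.34 to 0.035, adjusted p = 0.22) at ZT13. Without ZT13 LPS replicate 5, the highest of its group, Smad7 was called lower at ZT13 (-0.21, adjusted p = 0.044 by limma).

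Counted by separation of single mice, 5 members at ZT1 (all called members but Tgfbr2) and all 6 called members at ZT13 had every LPS mouse above every PBS mouse. The same held for 15.9% of genes tested at ZT1 and 20.9% at ZT13. The smallest two-sided exact permutation p that 3 against 5 mice allow is 0.018, which Eng, Acvrl1, Id3 and Tgfb1 reached at ZT1 and all 6 at ZT13.

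**Figure D2:**
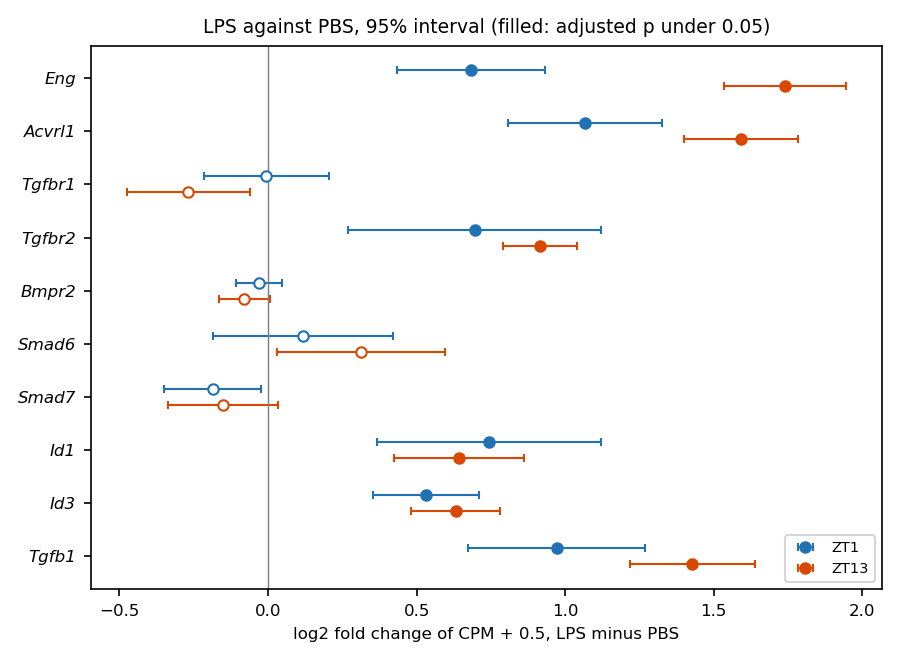
Log2 fold change of CPM + 0.5 for LPS minus PBS (horizontal axis) with its 95% interval for each gene, at ZT1 (blue) and ZT13 (orange); filled points passed an adjusted p of 0.05. Eng moves from 0.68 at ZT1 to 1.74 at ZT13, while Id1 lies at 0.74 and 0.64.

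Whether the response to LPS depended on TOD was tested as the TOD by treatment interaction, over all 16 mice. Eng was the only member called, with a difference between the ZT13 and ZT1 responses of 1.06 on the log2 scale (SE 0.16, 95% interval 0.71 to 1.40, adjusted p = 0.011 by limma). Of all genes tested, 0.159% were called (0.122% with a more positive response at ZT13), and 1745 had an unadjusted p under 0.05. The call was lost without ZT13 PBS replicate 2 (0.97, adjusted p = 0.050), the lowest Eng value of the series, and without an intensity trend in the prior variance (adjusted p = 0.053).

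Acvrl1 had an interaction of 0.53 (95% interval 0.20 to 0.85, adjusted p = 0.24) and Tgfb1 one of 0.46 (interval 0.089 to 0.83, adjusted p = 0.40). Tgfbr1 had -0.26 (interval -0.56 to 0.038), Tgfbr2 0.22 (interval -0.25 to 0.68) and Smad6 0.20 (interval -0.19 to 0.58). Without ZT1 LPS replicate 2 the value of Tgfbr2 was 0.043 and that of Id1 changed sign to 0.049. The Id genes gave values near 0, -0.10 (interval -0.56 to 0.36) for Id1 and 0.10 (interval -0.13 to 0.33) for Id3. Bmpr2 (-0.050, interval -0.16 to 0.061) and Smad7 (0.035, interval -0.22 to 0.29) were also near 0. None of these passed the correction, and whether the interaction of Eng differed from that of the others was not tested.

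The TOD differences of Eng inside each treatment had opposite signs, and both added to its interaction. In PBS mice Eng was lower at ZT13, by -0.46 on the log2 scale (SE 0.088, 95% interval -0.66 to -0.26, adjusted p = 0.063), a ratio of mean CPM of 0.723. In LPS mice it was higher at ZT13, by 0.60 (SE 0.11, interval 0.37 to 0.83, adjusted p = 0.080), a ratio of 1.51. Neither passed the correction in these fits. These comparisons and those of LPS against PBS use the same mice.

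In PBS mice no member was called between TODs, where 0.52% of genes tested were. Before correction, Eng and Id1 had a p under 0.05 (4.6e-04 and 0.037). Eng was lower and Tgfbr1 higher at ZT13 without overlap, as were 9.21% of genes tested in the lower and 9.52% in the higher direction. With 3 mice against 3 the smallest exact permutation p is 0.10, which both genes had. Tgfbr1 differed by 0.14 (95% interval -0.030 to 0.31) and Id1 by 0.25 (interval 0.019 to 0.49, adjusted p = 0.34). The other members differed by -0.15 (Tgfb1) to 0.060 (Bmpr2).

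In LPS mice no member was called between TODs either, where 0.0212% of genes tested, 4 genes in all, passed the correction. Eng and Acvrl1 were higher in every ZT13 LPS mouse than in every ZT1 LPS mouse, as were 1.55% of genes tested. Acvrl1 differed by 0.46 (SE 0.094, 95% interval 0.25 to 0.66, adjusted p = 0.096 by limma). For both genes the exact permutation p was 0.0079, the smallest that 5 against 5 mice allow. Both passed the correction without ZT1 LPS replicate 1 (adjusted p = 0.013 for Eng and 0.024 for Acvrl1), with sample quality weights (0.021 for each), and in a single fit of the 16 mice (0.019 and 0.037). Calls over all genes also rose in these fits, to 1.83%, 1.19% and 0.647% of genes tested. Without ZT1 LPS replicate 2 both had an adjusted p of 0.094. Before correction, Id3 (0.15) and Tgfb1 (0.31, interval 0.059 to 0.56, adjusted p = 0.35) also had a p under 0.05, and the other members differed by -0.12 (Tgfbr1) to 0.15 (Id1). Without ZT1 LPS replicate 2, Id1 differed by 0.30 (adjusted p = 0.25), Tgfbr2 by -0.082 in place of 0.093, Smad6 by 0.031 in place of 0.079 and Smad7 by 0.0056 in place of 0.031.

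**Figure D3:**
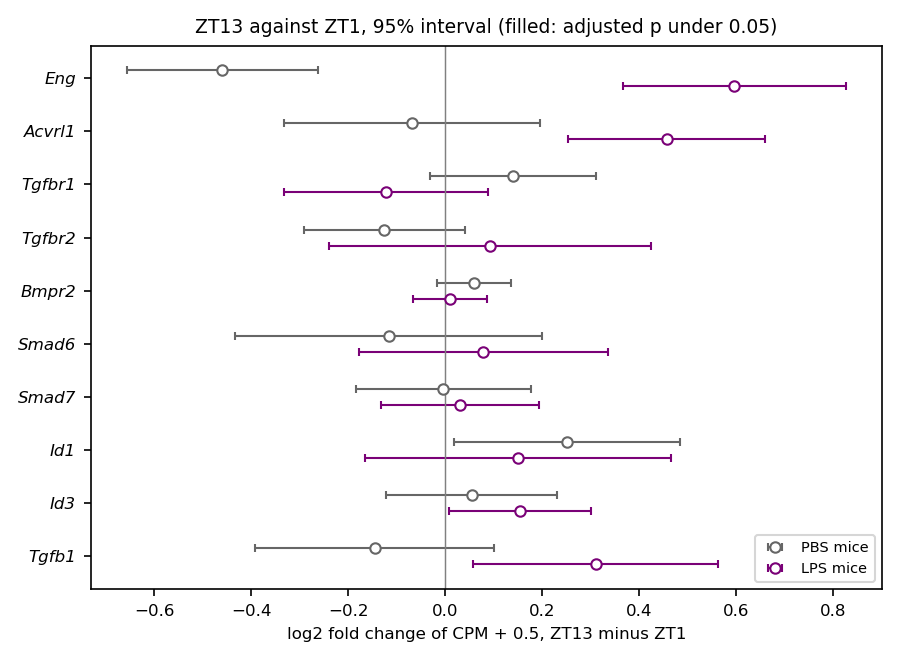
Log2 fold change of CPM + 0.5 for ZT13 minus ZT1 (horizontal axis) with its 95% interval for each gene, in PBS mice (grey) and in LPS mice (purple); open points did not pass an adjusted p of 0.05. Eng is at -0.46 in PBS mice and 0.60 in LPS mice, and no other gene has both intervals clear of 0.

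Markers of endothelium, the cells that carry endoglin and ALK1, were mostly called higher in LPS mice, as were 6 of the 10 members. The part of endothelial cells in the members' values was not tested. The summed level of 17 endothelial markers was 275 to 287 CPM in ZT1 PBS, 371 to 535 CPM in ZT1 LPS, 220 to 249 CPM in ZT13 PBS and 514 to 584 CPM in ZT13 LPS mice, and no marker was at or under 3 reads. At ZT1, 12 were called higher and 1, Flt1, lower (median log2 fold change 0.68). At ZT13, 15 were called higher and none lower (median 1.11). The shares over all genes tested were 11.1% higher and 5.15% lower at ZT1, and 19.2% higher and 9.4% lower at ZT13. In PBS mice 3 were called lower at ZT13, namely Cldn5 (-1.10, adjusted p = 0.0085), Kdr (-1.03, adjusted p = 0.0034) and Flt1 (-0.49, adjusted p = 0.013), the tight-junction claudin and 2 receptors for vascular endothelial growth factor. Another 5 of the 17 were higher there, up to 0.32 (Ly6c1), with none called higher. Over all genes tested, 0.52% were called in that comparison. In the interaction 6 were called with a more positive response at ZT13, led by Kdr (1.39, adjusted p = 0.013) and Cldn5 (1.36, adjusted p = 0.013). The value was positive for 15 of the 17 and negative for Slco1a4 (-0.44) and Ly6c1 (-0.40), neither called. Over all genes tested, 0.159% were called in the interaction. The list's median in LPS mice between TODs was 0.27, with none called by limma and 7 at an unadjusted p under 0.05.

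Set among those 17 markers, the response of Eng exceeded that of 8 at ZT1 and 14 at ZT13, and its interaction exceeded that of 15. The response of Acvrl1 exceeded that of 14 at ZT1 and 13 at ZT13. Id1 and Id3 each exceeded 5 of 17 at ZT13, and Tgfbr1, Bmpr2 and Smad7 exceeded none. The endothelial markers were spread as widely as the members themselves, from 0.19 (Sox17) to 2.24 (Cldn5) at ZT13.

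Taken relative to the mean log2 level of the endothelial list in the same mouse, Eng was at 0.56 to 0.70 in ZT1 PBS and 0.43 to 0.88 in ZT1 LPS mice. It was at 0.28 to 0.51 in ZT13 PBS and 0.84 to 1.24 in ZT13 LPS mice. On this scale the treatment groups overlapped at ZT1 and did not at ZT13. Acvrl1 was at -0.71 to -0.39, -0.50 to 0.43, -0.41 to -0.30 and -0.029 to 0.40 in ZT1 PBS, ZT1 LPS, ZT13 PBS and ZT13 LPS mice, again with overlap at ZT1 only. Tgfb1 had means of -1.02 in ZT1 PBS, -0.70 in ZT1 LPS, -0.93 in ZT13 PBS and -0.61 in ZT13 LPS mice. At each TOD all its LPS mice lay above all its PBS mice. Tgfbr2 stayed between group means of 0.44 and 0.63. Its lowest value, 0.22, was that of ZT1 LPS replicate 2, which also had the lowest summed endothelial and microglial markers of its group. The endothelial list itself rose after LPS (median log2 fold change 0.68 at ZT1 and 1.11 at ZT13). A gene that stayed level, or rose less than the list, is therefore lower in LPS mice on this scale. At ZT13, Id3 had means of 0.80 in PBS and 0.32 in LPS mice and Id1 of 0.24 and -0.22, without overlap, although both were higher in LPS mice in CPM. At ZT1 both overlapped between treatments, with means of 0.51 and 0.39 for Id3 and of -0.24 in PBS and -0.15 in LPS mice for Id1. These values are descriptions without a test, since members such as Tgfb1, the Id genes, Tgfbr1, Bmpr2 and the SMADs are also made by cells other than endothelium. Which cells made Tgfbr2 was not tested.

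**Figure D4:**
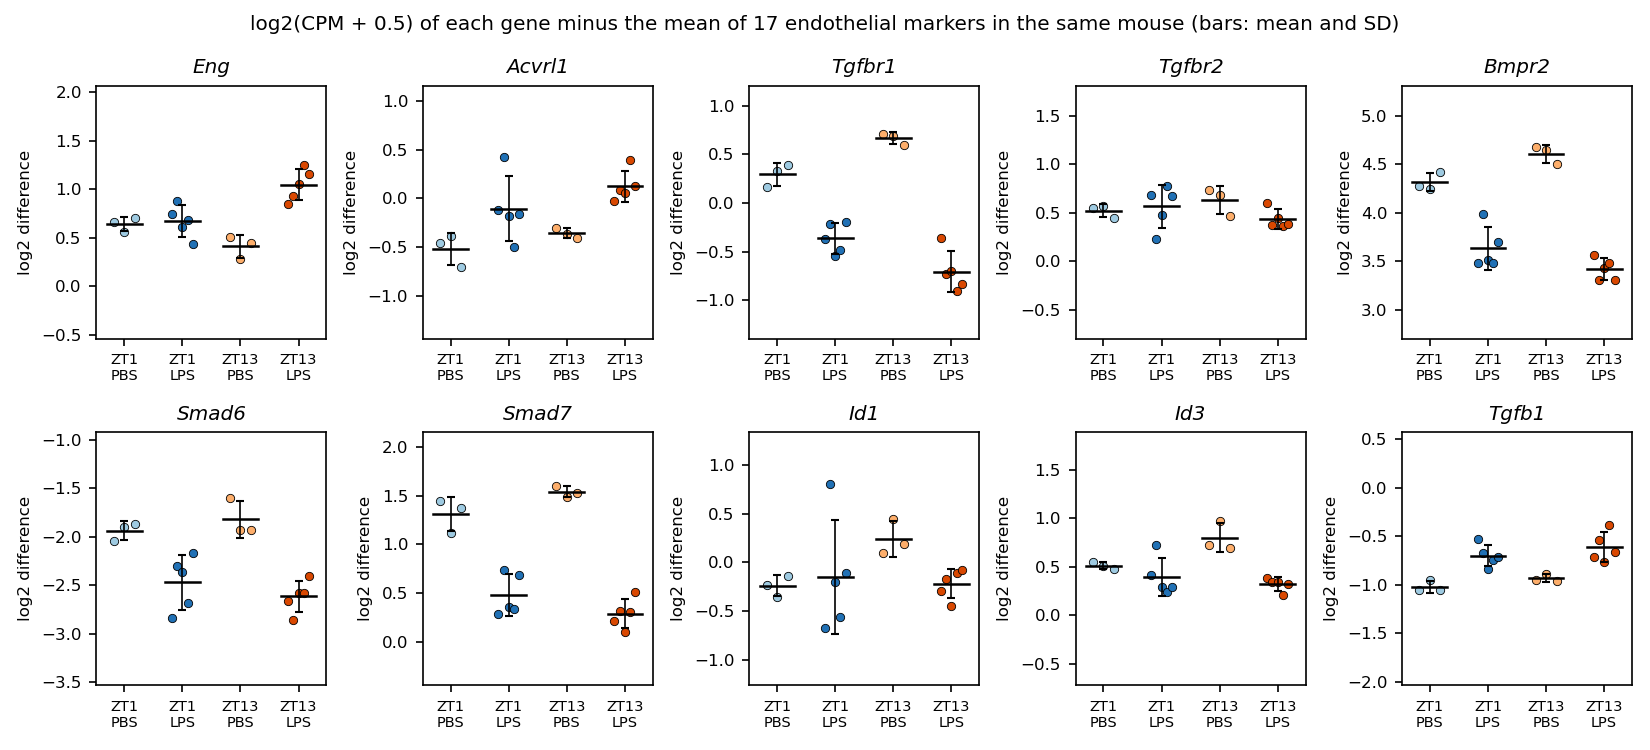
Log2 (CPM + 0.5) of each gene minus the mean of the 17 endothelial markers in the same mouse (vertical axes all span the same log2 distance), with bars at the group mean ± SD. Eng reaches a mean of 1.05 in ZT13 LPS mice against 0.41 to 0.67 in the other groups. The subtracted mean itself rose after LPS, so genes that stayed level in CPM come out lower in LPS mice. Tgfbr1, Bmpr2, Smad6 and Smad7 are lower in LPS mice on this scale and were not called in CPM.

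Markers of other cells moved with treatment as well. Microglial markers (12 genes) summed to 252 to 277 CPM in ZT1 PBS, 320 to 535 CPM in ZT1 LPS, 250 to 266 CPM in ZT13 PBS and 445 to 497 CPM in ZT13 LPS mice. Perivascular macrophage markers (7 genes) summed to 33.3 to 39.6, 68.5 to 110, 31.6 to 35.9 and 110 to 145 CPM. Neutrophil markers (9 genes, of which 5 were at or under 3 reads in the PBS groups) summed to 5.81 to 6.12, 17.4 to 86.5, 4.12 to 5.51 and 58.9 to 148 CPM. Mural cell markers (12 genes) summed to 231 to 252 CPM in ZT1 PBS, 200 to 253 CPM in ZT1 LPS, 207 to 233 CPM in ZT13 PBS and 229 to 270 CPM in ZT13 LPS mice. The sums hide direction: of the microglial markers, 8 were called higher and 2 lower at ZT1, and 8 higher and 3 lower at ZT13. Mural markers had 2 called higher at ZT1 and 5 at ZT13. Perivascular macrophage markers had 4 and 3 of 6 tested, and neutrophil markers 5 and 7 of 7 tested. These 3 lists had none called lower. Of all genes tested, 16.2% were called at ZT1 and 28.6% at ZT13. The part of any of these cells in the members' values was not tested.

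For the remaining lists, astrocyte markers had 4 of 9 called higher at ZT1 and 5 higher and 1 lower at ZT13. Neuron and oligodendrocyte markers (8 genes each) had 2 called lower at ZT1 and 5 at ZT13 in each list. Fibroblast markers (7 genes) had 1 higher at ZT1 and 3 higher and 2 lower at ZT13, and neither choroid plexus nor erythrocyte markers had a call at either TOD.

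Over the 16 libraries, the genes whose log2 level ran most like that of Eng were Col4a2 (Pearson r = 0.992), Col4a1 (r = 0.981), Robo4 (r = 0.980), Ltbr (r = 0.978) and Sox18 (r = 0.975). For Acvrl1 they were Flt4 (r = 0.985), Tnfaip2 (r = 0.984), Rhoj (r = 0.983), AI506816 (r = 0.981) and Tgm2 (r = 0.980). Col4a1 and Col4a2 encode the chains of basement membrane collagen IV, and Robo4, Sox18 and Flt4 are known from endothelium. Eng and Acvrl1 ran with each other at r = 0.945, and Eng with Tgfb1 at r = 0.954, with Tgfbr2 at 0.846 and with Tgfbr1 at -0.57. These are descriptions, since the points fall into the 4 groups of the design.

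Of 63 further genes of TGF-beta and BMP signalling, 60 were tested. The 3 left out were Gdf2 and Bmp10, the ligands of ALK1, and Gdf15. Gdf2 and Bmp10 had no more than 3 reads in any library. At ZT1, 9 were called higher and 5 lower after LPS, and at ZT13 14 were called in each direction. These are 14 and 28 calls of 60, beside 16.2% of all genes tested at ZT1 and 28.6% at ZT13. The median log2 fold change of the list was 0.018 at ZT1 and 0.040 at ZT13. None was called by limma between TODs in PBS mice (17 at an unadjusted p under 0.05), between TODs in LPS mice (15), or in the interaction (10).

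Among these 60 genes the largest increases at both TODs were those of Tgfbi and Lrg1, which encode secreted proteins. Tgfbi, a matrix protein induced by TGF-beta, was at 2.51 to 4.15 CPM in ZT1 PBS, 10.6 to 49.8 CPM in ZT1 LPS, 3.38 to 4.67 CPM in ZT13 PBS and 26.6 to 59.4 CPM in ZT13 LPS mice. Every LPS mouse lay above every PBS mouse, while the LPS mice of the TODs overlapped. Its log2 fold change was 2.46 (adjusted p = 0.0021) at ZT1 and 3.37 (adjusted p = 3.5e-08) at ZT13 by limma. Lrg1, a secreted glycoprotein that binds endoglin and shifts TGF-beta signalling toward ALK1, rose by 2.48 (adjusted p = 2.0e-06) at ZT1 and 2.90 (adjusted p = 2.4e-09) at ZT13. Lrg1 was at 9.56 to 14.4 CPM in ZT1 LPS and 16.8 to 26.7 CPM in ZT13 LPS mice, with a mean of 1.72 CPM in ZT1 PBS and 2.33 CPM in ZT13 PBS mice.

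Genes that hold latent TGF-beta or block ligands went both ways. Lrrc32, which tethers latent TGF-beta on the cell surface, rose by 0.61 (adjusted p = 0.0036) at ZT1 and 1.29 (adjusted p = 2.1e-07) at ZT13. Nrros, which does so on microglia, rose by 0.70 (adjusted p = 0.029) at ZT1, a call that quantile normalization removed, and by 0.80 (adjusted p = 7.3e-06) at ZT13. Grem1, a secreted BMP antagonist, rose by 0.57 (adjusted p = 0.038) at ZT1, also not called after quantile normalization. Ltbp4, which anchors latent TGF-beta in the matrix, had log2 fold changes of -0.47 (adjusted p = 9.7e-05) at ZT1 and -0.50 (adjusted p = 1.4e-04) at ZT13. Tgif1, a repressor of SMAD2 and SMAD3 transcription, rose by 1.18 (adjusted p = 4.8e-05) at ZT13.

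The 5 largest called decreases of the list at each TOD were those of Ltbp4 and of the genes named next. Gdf10, a BMP-family ligand, had values of -0.43 (adjusted p = 0.023) at ZT1 and -0.92 (adjusted p = 2.7e-05) at ZT13. Acvr1c, the type I receptor ALK7, had values of -0.58 (adjusted p = 0.024) and -0.53 (adjusted p = 1.2e-04). Bmp3 (-0.30, adjusted p = 0.011) and the TGF-beta feedback gene Pmepa1 (-0.27, adjusted p = 0.038) were lower at ZT1, and Bmp4 (-0.59, adjusted p = 0.0036) and the activin antagonist Fst (-0.50, adjusted p = 0.012) at ZT13. The calls of Gdf10, Acvr1c, Bmp3, Pmepa1, Grem1 and Nrros at ZT1 and of Fst at ZT13 were each lost when single mice were left out.

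By role, ligands had 1 call higher and 2 lower at ZT1 and 1 higher and 5 lower at ZT13, of 14 tested, and these counts too stand beside 16.2% and 28.6% of all genes called. The 8 other receptors had 1 call in each direction at both TODs, and the 6 signal-carrying SMADs 1 call higher at each. The calls named next were chosen after their values were seen. The listed ligand that was higher at both TODs, Bmp1 (0.29, adjusted p = 0.014 at ZT1; 0.50, adjusted p = 8.5e-07 at ZT13), encodes a procollagen protease and not a member of the ligand family. The receptor that was higher at both was Tgfbr3, the co-receptor betaglycan (0.47, adjusted p = 0.028 at ZT1; 0.39, adjusted p = 4.6e-04 at ZT13). The SMADs called were Smad1 at ZT1 (0.17, adjusted p = 0.0499) and Smad3 at ZT13 (0.14, adjusted p = 0.022), both by limma. The Smad1 call lay at the threshold. For Bmp1, Tgfbr3, Smad1 and Smad3, values under other settings or without single mice are not given here. Modulators (23 genes) had 5 higher and 2 lower at ZT1 and 8 higher and 6 lower at ZT13. Other targets (9 genes) had 1 higher and none lower at ZT1 and 3 higher and 2 lower at ZT13.

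**Figure D5:**
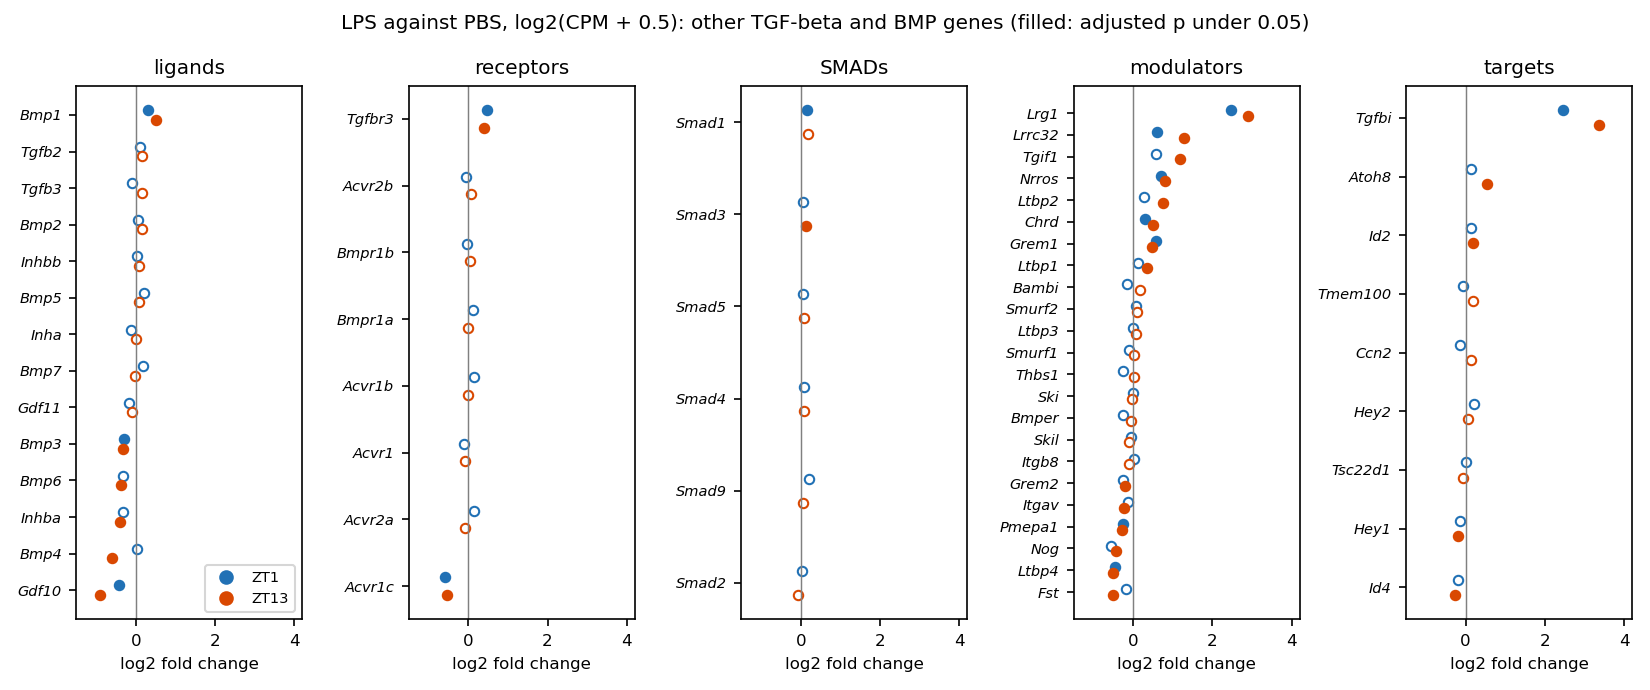
Log2 fold change of CPM + 0.5 for LPS minus PBS (horizontal axes) of the 60 other TGF-beta and BMP genes tested, by role, at ZT1 (blue) and ZT13 (orange); filled points passed an adjusted p of 0.05. Tgfbi and Lrg1 reach 3.37 and 2.90 at ZT13, and the SMADs stay close to 0.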

How the data were processed

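The deposited table held CPM per gene, which the authors scaled to reads on genes. The submitters' processing notes name bcl2fastq, DRAGEN 4.0.3-8 and GRCm38; how reads on overlapping genes or strands were assigned is not given in the sources used here. Of 55774 lines, 287 exact repeats were removed. Values were only partly whole multiples of the inferred 1 read (80.7% to 82.2% of values up to 20 reads per library, within 0.001 read), so no count test was run. Columns were mapped to samples by their descriptions and groups were taken from titles. The 18859 genes that reached 1 CPM in 3 or more of the 16 libraries were tested on log2(CPM + 0.5) with limma 3.58.1 in R 4.3.3 (empirical Bayes with intensity trend), so fold changes of low genes are understated. Each pair of groups was fitted alone and the interaction over all 16 mice. Benjamini-Hochberg adjusted p-values cover all genes tested, and calls used 0.05. Nothing in the labels states pairing or batches. The labels give 1 mouse per library. Exact permutation tests were two-sided. The fit was checked on simulated data. Of gene identifiers, 55141 of 55487 matched GENCODE M21, which gave positions and exon lengths; promoters came from RefSeq (GRCm38.p6). The members, pathway genes (in each comparison the called ones, at most 5 largest each way) and marker lists were chosen with earlier results of these data known. Alternatives changed the pseudocount, filter, scaling, weights, trend, fit and replicate block, and left out each mouse. Intervals are 95%. One item is not reported here.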

Additional observations from a re-analysis of the deposited data

Results flagged for a closer look

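One result met a rule for a closer look. The response of Eng to LPS differed between TODs by a test of the difference itself, with an interaction of 1.06 on the log2 scale (adjusted p = 0.011 by limma), from 0.68 at ZT1 to 1.74 at ZT13. In PBS mice Eng was lower at ZT13 and in LPS mice higher, and neither passed the correction alone. Of the 46 groups of 5 mice examined over 23 genes for a sample far from the others, 0 had one.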

How the results depend on the processing

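At ZT1 6 members were called in the reported fit and 4 to 6 when each mouse was left out in turn; at ZT13 6 were called and 6 to 7 when each mouse was left out. Over all genes tested, the fits without 1 mouse gave 1767 to 3758 calls at ZT1 (3061 in the reported fit). At ZT13 they gave 4329 to 5547 (5401 in the reported fit). The member count was 4 at ZT1 when every gene with any CPM was tested, where 1605 of 38565 genes were called. It was 8 at ZT13 with median-of-ratios scaling, where 29.8% of genes tested were called. In PBS mice between TODs the count went from 0 to 1 (Eng) with a filter of 5 CPM, with quantile normalization and with sample quality weights, and was 0 in each fit without 1 mouse. In LPS mice it went from 0 to 2 (Eng and Acvrl1) with sample quality weights and in a single fit of all 16 mice, and ran from 0 to 2 without 1 mouse (2 without ZT1 LPS replicate 1). Calls over all genes rose too, from 4 to 225 with weights, 122 in the single fit and 345 without that mouse, and in PBS mice from 98 to 158, 199 and 125. The interaction count went from 1 to 0 without an intensity trend and ran from 0 to 1 without 1 mouse (0 without ZT13 PBS replicate 2), where calls over all genes went from 30 to 11 and 7.

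Between mice with the same replicate number, correlations of deviations ran from -0.20 to 0.33, highest for replicate 5 of the LPS groups. Such correlations cannot settle whether mice were paired, and the labels do not state it. With the replicate number as a block, 5 members were called at ZT1, 6 at ZT13, 0 in PBS mice, 0 in LPS mice and 1 in the interaction. Calls over all 18859 genes tested in these fits were 2637, 4680, 57, 3 and 25.

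No called member changed direction in any alternative run. The sign turned for values near 0: with quantile normalization at ZT1 for Bmpr2 (0.018) and Smad6 (-0.026), and with median-of-ratios scaling for Bmpr2 in LPS mice (-0.0025). Leaving out each mouse in turn gave values on both sides of 0 for Tgfbr1 (-0.071 to 0.047) and Bmpr2 (-0.049 to 0.0016) at ZT1, for Acvrl1 (-0.19 to 0.020), Smad7 (-0.080 to 0.063) and Id3 (-0.0057 to 0.12) in PBS mice, for Tgfbr2 (-0.082 to 0.19), Bmpr2 (-0.010 to 0.034) and Smad7 (-0.027 to 0.074) in LPS mice, and for Smad7 (-0.032 to 0.11) and Id1 (-0.21 to 0.049) in the interaction. The cause was not tested. Of all other values of single genes under an alternative, 1233 kept direction and call, 52 lost the call and 16 gained one.

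Scaling shifted the whole table. The share of called genes that were higher was 68.2% at ZT1 and 67.2% at ZT13, against 54.1% and 51.0% with median-of-ratios scaling and 51.1% and 45.0% with quantile normalization, which moved the median of all genes at ZT13 by -0.11. Smad6 has no value with the filter of 5 CPM. Single mice of either treatment decided calls near the threshold.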
